A study of Mus musculus with 15 samples.

Results

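*Hephl1* and 9 other genes of iron handling were followed through the aortas of male mice with and without androgen. The 10 genes were taken by symbol from the 24982 symbols of the count tables, and each of the 10 was among the 14121 genes that passed the filter on low counts. *Hephl1* was chosen on its own values after orchiectomy and after DHT treatment in these libraries, so its values are given as a description with no test. The other 9 (*Heph*, *Cp*, *Slc40a1*, *Slc11a2*, *Tfrc*, *Trf*, *Fth1*, *Ftl1* and *Hmox1*) were named for their roles.

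Whole aortas came from WT C57BL/6 male mice aged 10 months. Every mouse received Aldo-salt for 7 days, that is aldosterone (200 ug/kg per day from an osmotic minipump) with 0.9% NaCl and 0.2% KCl in the drinking water. The 5 control mice had a sham operation, 5 mice were orchiectomized, and 5 were orchiectomized and received a pellet of dihydrotestosterone (DHT), an androgen that aromatase cannot convert to estrogen. Because the controls also received Aldo-salt, the comparisons address androgen under Aldo-salt and not Aldo-salt itself. The DHT-treated mice were compared with both other groups, so the comparisons share libraries.

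Iron enters most cells as transferrin-bound ferric iron through the transferrin receptor, is reduced, crosses the endosomal membrane through a ferrous iron transporter, and is then used, stored in ferritin or exported through ferroportin. Exported ferrous iron has to be oxidized again, which is the work of the multicopper ferroxidases ceruloplasmin (*Cp*), hephaestin (*Heph*) and zyklopen, the product of *Hephl1*. Ceruloplasmin is best known as a plasma protein of the liver, hephaestin from the enterocyte, and zyklopen from placenta and hair follicles. In the arterial wall iron is handled by smooth muscle cells, by macrophages that take up red cells, and by the fat that surrounds the vessel.

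Several of these mRNAs carry iron-responsive elements (IREs), hairpins bound by the iron regulatory proteins when iron is scarce. A hairpin in the 5′ UTR (*Fth1*, *Ftl1*, *Slc40a1*) blocks translation when bound, and hairpins in the 3′ UTR (*Tfrc*) protect the mRNA from decay. The sites are shown because *Tfrc* and the ferritin genes stand on opposite sides of this control. The ratio of *Tfrc* to *Fth1* mRNA is one of the comparisons made. It does not measure translation, so it cannot report the control of ferritin by these hairpins. A search of the GENCODE M21 transcripts (GRCm38) for a C, a paired arm of 5 bases, the loop CAGTGN and the matching arm found 7 such sites of 17 bases in 4 of the 10 genes. Pairs of G with T were allowed in the arms, as in the *Tfrc* site at chr16:32631604-32631620. The loop is in capitals, each sequence is written 5′ to 3′ on the strand of the gene, and the letters are those of DNA.
*Slc40a1*, 5′ UTR, chr1:45925471-45925487, minus strand: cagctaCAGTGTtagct
*Fth1*, 5′ UTR, chr19:9982738-9982754, plus strand: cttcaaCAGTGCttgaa
*Ftl1*, 5′ UTR, chr7:45459785-45459801, minus strand: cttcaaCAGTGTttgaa
*Tfrc*, 3′ UTR, chr16:32631225-32631241, plus strand: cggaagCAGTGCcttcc
*Tfrc*, 3′ UTR, chr16:32631604-32631620, plus strand: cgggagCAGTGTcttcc
*Tfrc*, 3′ UTR, chr16:32631669-32631685, plus strand: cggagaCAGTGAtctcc
*Tfrc*, 3′ UTR, chr16:32631716-32631732, plus strand: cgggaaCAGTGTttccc
The arms of the *Fth1* and *Ftl1* sites were the same, and *Tfrc* held 4 of the 7 sites. Transcripts of *Hephl1*, *Heph*, *Cp*, *Slc11a2*, *Trf* and *Hmox1* held 0 matches to these letters, and 294 of 21877 protein-coding genes (1.34%) held at least 1. A match is a description of the sequence and does not show binding. The search took only this unbroken pattern, so 0 matches do not show that a gene, *Slc11a2* among them, lacks an IRE.

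The libraries held 8268957 to 13816864 reads assigned to genes. Levels are scaled CPM, that is counts relative to the size of the library after TMM scaling, and the tests are edgeR's quasi-likelihood tests fitted to all 14121 genes, in which a gene was called at an unadjusted P value under 0.01. Each P value adjusted by the Benjamini-Hochberg method covers all tested genes. The labels number the 5 libraries of each group. Orchiectomized replicate 2 stood apart with the highest summed T and B cell, mesothelial and keratinocyte markers (176, 846 and 182 CPM), and counts of calls that changed without it are given both ways. Without it, 1.79% of all genes were called after orchiectomy, 8.39% with DHT against orchiectomy alone and 4.8% with DHT against control mice. In bulk tissue, fewer cells of a type and less RNA per cell cannot be told apart. Smooth muscle markers were abundant in every library, with a summed level of 11180 to 24969 CPM, and adipocyte markers, which come with perivascular fat, summed to 3135 to 9033 CPM.

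*Hephl1* was low after orchiectomy and back near the control level with DHT. Its gene lies on chr9:15051841-15112108, minus strand (GRCm38). In replicate order, the control libraries held 21.1, 11.0, 25.7, 6.36 and 10.7 CPM. The orchiectomized libraries held 1.93, 0.795, 0.698, 2.68 and 2.84 CPM. The DHT-treated libraries held 7.51, 5.84, 12.8, 27.5 and 9.49 CPM. All 5 orchiectomized libraries lay below each of the other 10, while control and DHT-treated libraries overlapped.

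The mean level of *Hephl1* was 14.98 ± 8.06 CPM (SD, n = 5) in control mice, 1.79 ± 1.01 in orchiectomized mice and 12.6 ± 8.69 with DHT. The control mean was 8.37 times, and the mean with DHT 7.06 times, the mean of the orchiectomized mice. The log2 fold changes were -3.04 (standard error 0.53) and 2.79 (standard error 0.53), and -0.25 (standard error 0.48) between DHT-treated and control mice. The raw counts behind the orchiectomized values were 18, 9, 8, 39 and 35 reads, against 90 to 247 in the controls and 65 to 223 with DHT. The spread within the control and DHT-treated groups was wide, with SDs over 8 CPM.

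*Heph*, the closest relative in role, did not follow *Hephl1*. It held 4.88, 9.44, 9.99, 8.06 and 12.5 CPM in the control libraries. The orchiectomized libraries held 6.98, 9.98, 12.5, 12.4 and 8.04 CPM. The DHT-treated libraries held 5.55, 8.72, 3.71, 5.30 and 4.64 CPM, of which 4 lay below all orchiectomized libraries. The mean was 8.97 ± 2.79 CPM in control mice, 9.98 ± 2.49 after orchiectomy and 5.58 ± 1.89 with DHT (SD, n = 5).

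*Heph* fell by 0.83 on the log2 scale (standard error 0.27) with DHT and was called there (edgeR, adjusted P = 0.0882). The call was lost when control replicate 4, orchiectomized replicate 2, 3 or 4, or DHT replicate 1, 3, 4 or 5 was left out, and over all left-out libraries the log2 fold change was -1.05 to -0.70. It was also lost with only the groups compared in the fit (-0.81). Orchiectomized against control mice gave a log2 fold change of 0.16 (standard error 0.26, edgeR adjusted P = 0.848), and DHT-treated against control mice -0.68 (standard error 0.27, edgeR adjusted P = 0.363), neither of them called. The second was called without control replicate 1 (-0.83) or DHT replicate 2 (-0.90).

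*Cp* was the ferroxidase with the highest level and passed the threshold in none of the 3 comparisons (edgeR adjusted P = 0.771, adjusted P = 0.626 and adjusted P = 0.972, and DESeq2 called it in none). It held 95.9 to 147 CPM in control, 94.3 to 217 in orchiectomized and 86.0 to 159 in DHT-treated libraries, ranges that overlapped. The highest value, 217 CPM, belonged to orchiectomized replicate 2, and the next in that group was 128 CPM. The log2 fold changes were 0.18, -0.21 and -0.03, each with a standard error of 0.22.

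Per kilobase of the longest protein-coding transcript, *Cp* was highest in each group, and only the order of *Hephl1* and *Heph* differed. This order rests on the *Hephl1* values on which that gene was chosen. *Cp* stood at 25.6 ± 4.93 CPM per kilobase in control mice (SD, n = 5), *Hephl1* at 2.85 ± 1.53 and *Heph* at 1.89 ± 0.588. After orchiectomy, *Hephl1* stood at 0.34 ± 0.192 CPM per kilobase, below *Heph* at 2.10 ± 0.526. With DHT the values were 2.40 ± 1.65 for *Hephl1* and 1.18 ± 0.399 for *Heph*. In control and DHT-treated mice the spreads of *Hephl1* and *Heph* overlapped, and only in orchiectomized mice did they not.

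**Figure D1:**
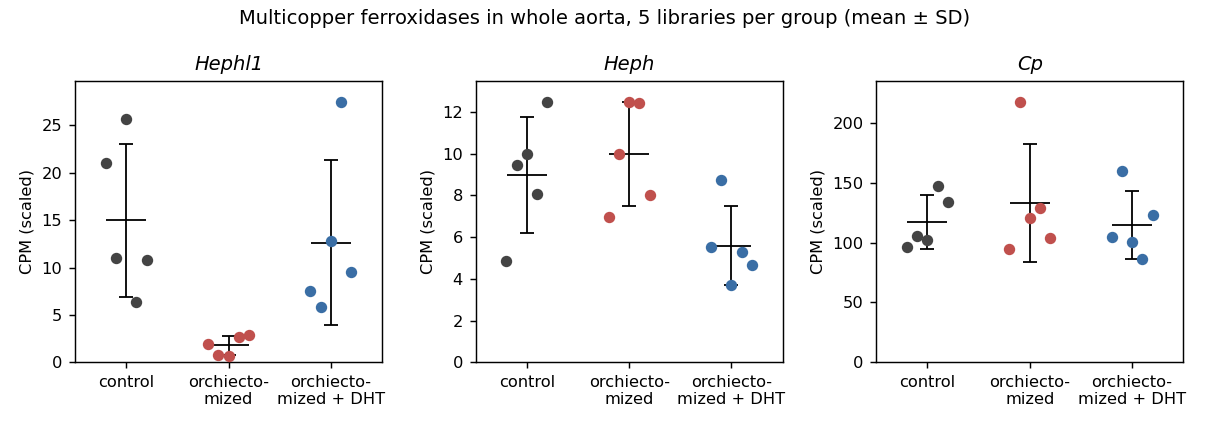
Scaled CPM (y axis, from 0) of the ferroxidase genes in each library (points), by group, with the mean and SD (bars, n = 5). The 5 orchiectomized libraries of *Hephl1* sit between 0.698 and 2.84 CPM, below the 10 others, while *Heph* is lowest with DHT and *Cp* overlaps between groups.

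The genes whose levels ran most like *Hephl1* over the 15 libraries were found by Pearson's correlation of log2 CPM among the other 14120 tested genes, as a description. They were *Adcy10* (r = 0.959), which encodes soluble adenylyl cyclase, *Pnpla3* (r = 0.951), a lipid droplet protein, *Mlxipl* (r = 0.942), the carbohydrate-responsive transcription factor ChREBP, *Acly* (r = 0.941), the ATP citrate lyase that supplies acetyl-CoA, and *Hk2* (r = 0.939), a hexokinase. After subtraction of the group means the values were 0.916, 0.893, 0.909, 0.974 and 0.899 in the same order, so libraries within a group also ran together. The libraries share their RNA, depth and tissue makeup, and a correlation over them gives no order of cause.

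The genes most opposed were *Sgpp1* (r = -0.94), a sphingosine phosphate phosphatase, *Gpd1l* (r = -0.91) and *Soat1* (r = -0.90), which esterifies cholesterol. Among the iron genes, *Tfr2* had r = 0.905 and ranked 27 of 14120. The other 9 members ran from r = -0.58 (*Trf*) to r = 0.566 (*Slc11a2*), with *Fth1* at 0.527, *Tfrc* at -0.25, *Heph* at -0.48 and *Cp* at -0.53.

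A list of 10 fatty acid synthesis genes, chosen after these correlations were seen, held ranks 3 to 96. *Fasn*, the fatty acid synthase, had r = 0.930 and *Acaca*, the acetyl-CoA carboxylase, r = 0.932. *Acly* held 634 to 2891 CPM in control, 305 to 803 in orchiectomized and 785 to 2395 in DHT-treated libraries. Its orchiectomized and DHT-treated libraries overlapped, as did those of *Pnpla3* and *Mlxipl*. Those of *Adcy10* and *Hk2* did not, nor did those of *Hephl1*, which was chosen on these values.

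Most adipocyte markers had positive correlations with *Hephl1*, 7 of 9 over all libraries. *Ucp1*, the uncoupling protein of brown fat, had r = 0.814 (0.882 within groups), *Cidea* 0.736 (0.838), *Fabp4* 0.711 (0.833), *Plin1* 0.686 (0.799) and *Cidec* 0.667 (0.743). The hormone genes were lower, with *Lep* (leptin) at 0.554 (0.020 within groups), *Adipoq* (adiponectin) at 0.215 (0.613), *Retn* (resistin) at -0.33 (0.0025) and *Cfd* (adipsin) at -0.34 (0.207). Of the 9 adipocyte markers, 1 (*Lep*) was called lower after orchiectomy and 0 were called with DHT. Their summed level was 3135 to 9033 CPM in control, 3444 to 6105 in orchiectomized and 3606 to 8095 in DHT-treated libraries, so the groups overlapped. Markers of keratinocytes and hair follicles, where *Hephl1* is known, were low outside orchiectomized replicate 2 (182 CPM). They summed to 6.35 to 9.13 CPM in control and 4.56 to 6.71 in DHT-treated libraries, 0 of the 3 tested were called in either comparison with untreated orchiectomized mice, and *Krt71* was listed at 0 throughout. With DHT against control mice, where 2.01% of all genes were called lower, 1 of the 3 was called lower. It was *Krt14*, which fell by 3.09 (standard error 0.91, edgeR adjusted P = 0.21) from 1 to 20 reads per library to 0 to 4. Against untreated orchiectomized mice its log2 fold change was -2.67 (edgeR adjusted P = 0.106), which did not pass the threshold. Of the 8 skeletal muscle markers, 2 were called lower after orchiectomy (*Myh4*, *Mylpf*), where 1.13% of all genes were, and 5 higher with DHT against untreated orchiectomized mice, where 2.46% were. These counts were 3 and 7 without orchiectomized replicate 2. They summed to 40.2 to 503 CPM in control, 9.53 to 189 in orchiectomized and 80.5 to 480.1 in DHT-treated libraries, so orchiectomized libraries overlapped with both other groups. The part of fat or skeletal muscle in the *Hephl1* difference was not tested.

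**Figure D2:**
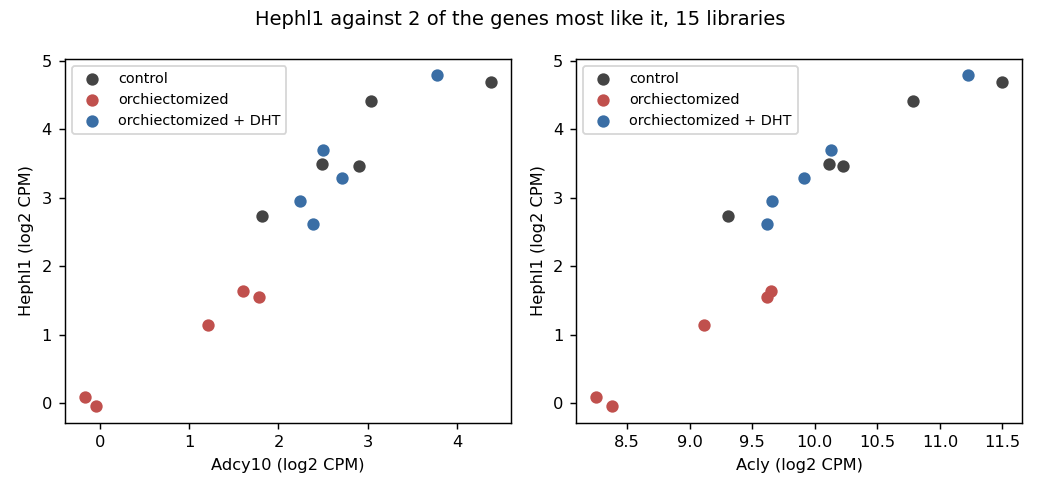
Log2 CPM of *Hephl1* (y axis) against *Adcy10* (left) and *Acly* (right) in the 15 libraries, colored by group. Points rise together (r = 0.959 and 0.941), with the 5 orchiectomized libraries at the lower left.

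*Tfrc*, the transferrin receptor of iron uptake, was called in both comparisons with DHT-treated mice. It held 42.3, 40.2, 43.7, 36.5 and 43.0 CPM in control libraries. It held 41.5, 40.7, 35.1, 33.2 and 43.9 CPM in orchiectomized libraries. With DHT it held 29.2, 30.4, 25.1, 23.2 and 31.9 CPM, so that each DHT-treated library lay below each of the other 10.

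*Tfrc* fell by 0.47 on the log2 scale (standard error 0.11) against untreated orchiectomized mice (edgeR, adjusted P = 0.0247) and by 0.56 (standard error 0.11) against control mice (edgeR, adjusted P = 0.0464). The mean was 41.1 ± 2.89 CPM in control, 38.9 ± 4.52 in orchiectomized and 27.9 ± 3.68 in DHT-treated mice (SD, n = 5). Orchiectomy alone gave -0.08 (standard error 0.11, edgeR adjusted P = 0.788). Both calls held in each of the 15 fits that left out 1 library, with log2 fold changes of -0.51 to -0.41 against untreated orchiectomized mice and -0.60 to -0.50 against control mice. *Tfrc* was thus called with DHT against both other groups and was not called after orchiectomy, where *Hephl1* was lowest.

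*Trf*, which encodes the plasma iron carrier transferrin, was highest in orchiectomized replicate 2. The orchiectomized libraries held 118, 423, 192, 262 and 175 CPM. Control libraries held 103 to 191 CPM and DHT-treated libraries 64.7 to 209 CPM, so all groups overlapped. The log2 fold change was 0.61 (standard error 0.35, edgeR adjusted P = 0.482) after orchiectomy and -0.92 (standard error 0.35, edgeR adjusted P = 0.139) with DHT, neither of which passed the threshold. Without orchiectomized replicate 2 these values were 0.28 and -0.58. The DHT value passed the threshold without orchiectomized replicate 1 (-1.09) or DHT replicate 2 (-1.19).

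*Slc11a2*, the ferrous iron transporter DMT1, was not called in any of the 3 comparisons. It held 40.7 to 52.9 CPM in control, 36.8 to 49.5 in orchiectomized and 40.0 to 58.0 in DHT-treated libraries. Its log2 fold changes were -0.16, 0.13 and -0.03 (standard error 0.12 each), none of which was called by edgeR (adjusted P = 0.602, adjusted P = 0.572 and adjusted P = 0.941). Within 2 standard errors, the DHT difference from untreated orchiectomized mice lay between -0.11 and 0.38.

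*Slc40a1*, ferroportin, the known iron exporter of animal cells, held 12.3, 7.38, 8.64, 7.07 and 19.4 CPM in control libraries. It held 9.99, 12.3, 9.07, 17.4 and 11.0 CPM in orchiectomized and 4.01, 9.89, 5.88, 7.76 and 9.08 CPM in DHT-treated libraries. The log2 fold change with DHT was -0.71 (standard error 0.31, edgeR adjusted P = 0.197), which did not pass the threshold. Against control mice it was -0.58 (standard error 0.31, edgeR adjusted P = 0.478) and -0.27 without control replicate 5, and after orchiectomy 0.13 (standard error 0.30, edgeR adjusted P = 0.894).

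**Figure D3:**
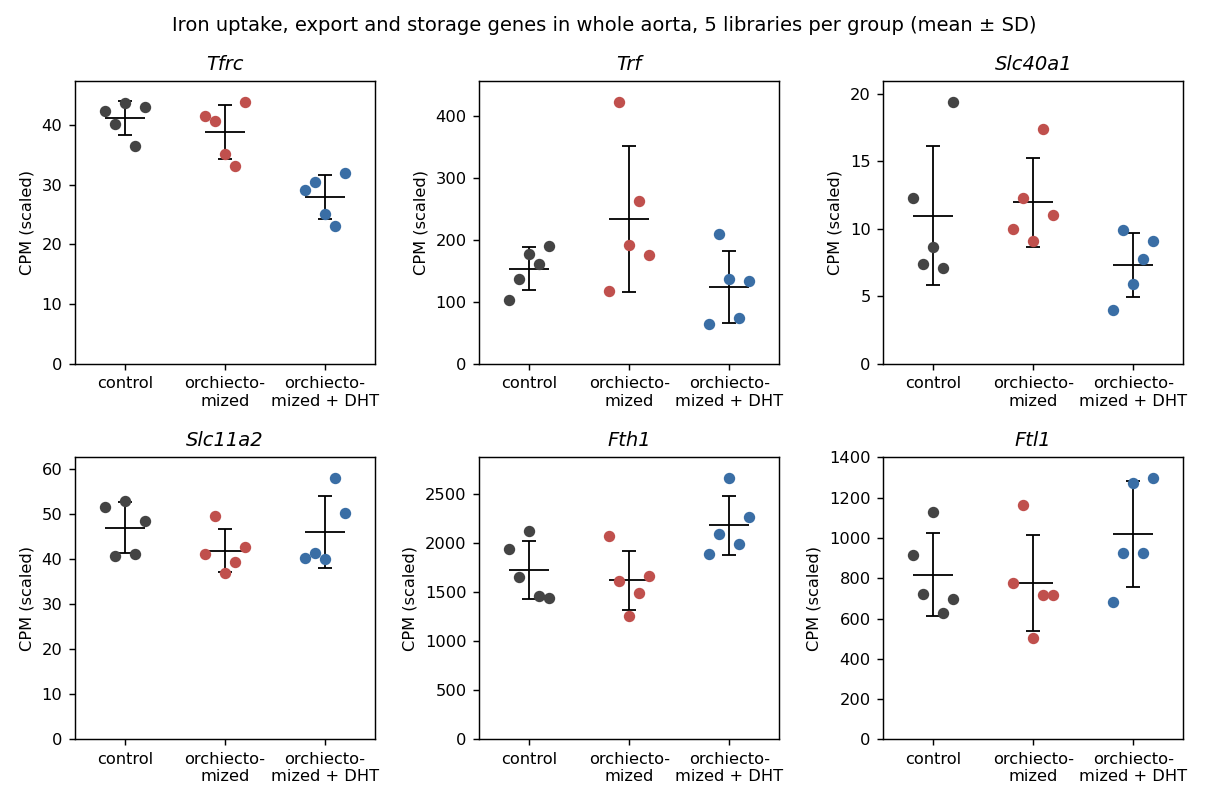
Scaled CPM (y axis, from 0) of uptake, transport, export and storage genes in each library (points), with the mean and SD (bars, n = 5). The DHT-treated libraries of *Tfrc* sit between 23.2 and 31.9 CPM, below the 10 others, and the *Trf* value of 423 CPM is orchiectomized replicate 2.

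Ferritin is a shell of heavy chains (*Fth1*), which oxidize iron, and light chains (*Ftl1*), which help to store it. *Fth1* was the most abundant member and *Ftl1* came next, also per kilobase. The *Fth1* libraries held 1446 to 2120 CPM in control, 1261 to 2074 in orchiectomized and 1893 to 2668 in DHT-treated mice. Its mean was 1725 ± 298.5 CPM, 1621 ± 298 and 2181 ± 304 (SD, n = 5), and 3 of the 5 DHT-treated libraries lay above all orchiectomized ones.

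The log2 fold change of *Fth1* with DHT was 0.43 (standard error 0.16, edgeR adjusted P = 0.128) and was not called. DESeq2 called it (0.46, adjusted P = 0.0375), and so did edgeR without control replicate 4 (0.45), control replicate 5 (0.46) or orchiectomized replicate 1 (0.53). *Ftl1* held 625 to 1130.3 CPM in control, 505 to 1163 in orchiectomized and 679.5 to 1299 in DHT-treated libraries. Its log2 fold change with DHT was 0.39 (standard error 0.23, edgeR adjusted P = 0.352), and 0.60 without orchiectomized replicate 2, called in neither fit. After orchiectomy the values of *Fth1* and *Ftl1* were -0.09 and -0.08 (edgeR adjusted P = 0.855 and adjusted P = 0.924). Both genes have processed copies in the genome, and how reads shared with such copies were counted is not given in the sources used here.

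The ratio of *Tfrc* to *Fth1* counts within a library sets the uptake receptor against the storage chain and needs no scaling between libraries. Its log2 value was -5.38 ± 0.20 in control, -5.37 ± 0.19 in orchiectomized and -6.29 ± 0.29 in DHT-treated mice (SD, n = 5). The highest DHT-treated library, at -6.02, lay below the lowest of the other 10, at -5.64. The ratio was lower by 0.91 with DHT than in either other group (differences of -0.91 and -0.91; exact two-sided permutation tests, P = 0.00794 each, the smallest value that 5 against 5 allow; adjusted over 6 tests 0.0238). Orchiectomy alone gave 0.0042 (exact permutation test, P = 0.968). The log2 ratio of *Fth1* to *Ftl1* was 1.09 ± 0.13, 1.10 ± 0.37 and 1.13 ± 0.24 and differed by 0.033 or less in each comparison (exact permutation tests, P = 0.817 to 1). Both ratios were chosen with earlier results of these data known.

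*Hmox1*, the inducible heme oxygenase that frees iron from heme, overlapped between the groups, at 17.1 to 27.1 CPM in control, 16.3 to 25.7 in orchiectomized and 16.6 to 25.8 in DHT-treated libraries. Its log2 fold changes were -0.04, 0.02 and -0.02 (standard error 0.16 each), and edgeR called none of them (adjusted P = 0.941, adjusted P = 0.96 and adjusted P = 0.977).

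Over the 9 tested members, 0, 2 and 1 were called in the 3 comparisons. Orchiectomized against control mice called 0 of 9 (edgeR, with 0 also at an unadjusted P value under 0.05 and 0 by DESeq2), where 3.22% of all genes were called (2.08% higher, 1.13% lower). DHT-treated against untreated orchiectomized mice called 2 of 9 (22.2%), both lower (*Heph*, *Tfrc*), where 9.72% of all genes were called (2.46% higher, 7.27% lower). DHT-treated orchiectomized against control mice called 1 of 9 (11.1%), lower (*Tfrc*), where 3.53% were called (1.52% higher, 2.01% lower). The counts were 0, 1 and 1 without orchiectomized replicate 2. At an adjusted P value under 0.05 the members counted 0, 1 and 1, against 0%, 4.72% and 0.262% of all genes. The 0% of the first comparison stands for 0 genes by edgeR, where 1692 had an unadjusted P value under 0.05 and DESeq2 gave 131 at its adjusted P value under 0.05. The median log2 fold change of the 9 was -0.04, -0.21 and -0.03, against 0.04, -0.02 and -0.0029 for all genes.

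**Figure D4:**
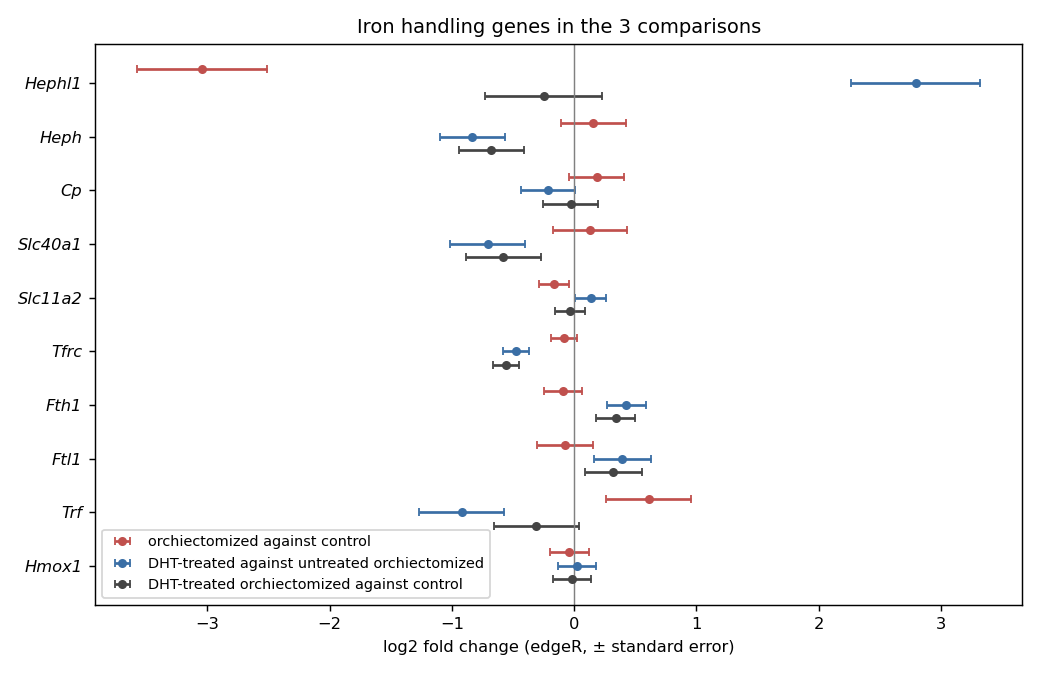
Log2 fold change (x axis, edgeR, bars are standard errors) of the 10 genes in the 3 comparisons, 5 libraries per group. *Hephl1*, chosen on these values, is the only one beyond 1 in either direction, and of the other 9 only *Tfrc* and *Heph* were called.

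The iron handling list held 47 genes without *Hephl1*, among them the 9 other members, and 44 were tested (*Ftmt* was listed at 0, and *Steap1* and *Hpx* did not pass the filter). In orchiectomized against control mice 2 of 44 were called (4.55%, against 3.22% of all genes), *Ltf* higher and *Tfr2* lower. With DHT against untreated orchiectomized mice 9 of 44 were called, 3 higher and 6 lower, that is 20.5% against 9.72% of all genes. DHT-treated against control mice called 2 (4.55% against 3.53%), *Tfrc* and *Cybrd1*, both lower. Without orchiectomized replicate 2 the counts were 3, 7 and 3. Of the 35 tested genes that are not members, 2 (5.71%), 7 (20%) and 1 (2.86%) were called, and 3, 6 and 2 without that library. The median log2 fold changes of the list were -0.07, -0.08 and -0.06.

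*Cybrd1*, the ferrireductase duodenal cytochrome b, was called lower with DHT against both other groups. Its counts were 7 to 15 reads in the DHT-treated libraries, 35 to 97 in the orchiectomized and 16 to 72 in the controls. It held 1.08 ± 0.348 CPM with DHT, 6.66 ± 2.09 after orchiectomy and 4.004 ± 2.26 in controls (SD, n = 5), with the DHT-treated group below both others. The log2 fold change was -2.62 (standard error 0.41, edgeR adjusted P = 0.00653) against untreated orchiectomized and -1.89 (standard error 0.41, edgeR adjusted P = 0.0737) against control mice.

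*Slc39a8*, a zinc transporter family member that also carries iron, held 2.05 to 4.22 CPM with DHT and 7.10 to 10.7 in controls. The orchiectomized libraries held 5.69, 49.6, 10.0, 8.64 and 8.04 CPM, all above the DHT-treated group. Its log2 fold change was -2.35 (standard error 0.52, edgeR adjusted P = 0.0233) and -1.32 without orchiectomized replicate 2, where it kept its call. *Steap3*, the endosomal ferrireductase of the transferrin route, fell by 0.47 (standard error 0.12, edgeR adjusted P = 0.0392), and of the fits that left out 1 library only that without orchiectomized replicate 4 lost the call (-0.37).

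*Tfr2*, the second transferrin receptor, followed the direction of *Hephl1*. It held 2.12 to 17.5 CPM in control, 1.41 to 3.25 in orchiectomized and 2.79 to 15.5 in DHT-treated libraries, with overlap between groups. The log2 fold change was -1.85 (standard error 0.51, edgeR adjusted P = 0.261) after orchiectomy and 1.63 (standard error 0.51, edgeR adjusted P = 0.0816) with DHT. The first lost its call without control replicate 3, at -1.39. The second lost it when DHT replicate 4 or any of orchiectomized replicates 1, 2 and 3 was left out, with log2 fold changes of 1.13 to 1.84 over all left-out libraries.

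*Hp*, haptoglobin, which binds free hemoglobin, rose by 1.13 on the log2 scale with DHT against untreated orchiectomized mice (standard error 0.31, edgeR adjusted P = 0.047). The means were 492 ± 151 CPM in control, 268 ± 115 in orchiectomized and 588 ± 173 in DHT-treated mice (SD, n = 5). *Hp* was not called after orchiectomy (-0.87, edgeR adjusted P = 0.324) or with DHT against control mice (0.26, edgeR adjusted P = 0.763). *Fdxr*, a mitochondrial ferredoxin reductase, rose by 0.50 (standard error 0.16, edgeR adjusted P = 0.0877). Its call was lost on leaving out orchiectomized replicate 1, 3 or 5 or DHT replicate 3, 4 or 5 (0.44 to 0.58 over all left-out libraries). *Ltf*, lactoferrin of neutrophil granules, held 12612 reads in orchiectomized replicate 2 and 23 to 44 in the other 4 orchiectomized libraries. The other groups held 1 to 12 reads. Its log2 fold change after orchiectomy was 8.83 with that library and 2.59 without it. With DHT it was -8.39 against untreated orchiectomized mice and -2.17 without that library. DESeq2 gave no P value for *Ltf* in either comparison. The 4 tested neutrophil markers held 34 to 150 reads in orchiectomized replicate 2 and 16 to 113 in the other 4 orchiectomized libraries. They thus did not follow the *Ltf* value of that library, and its cell source was not tested.

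**Figure D5:**
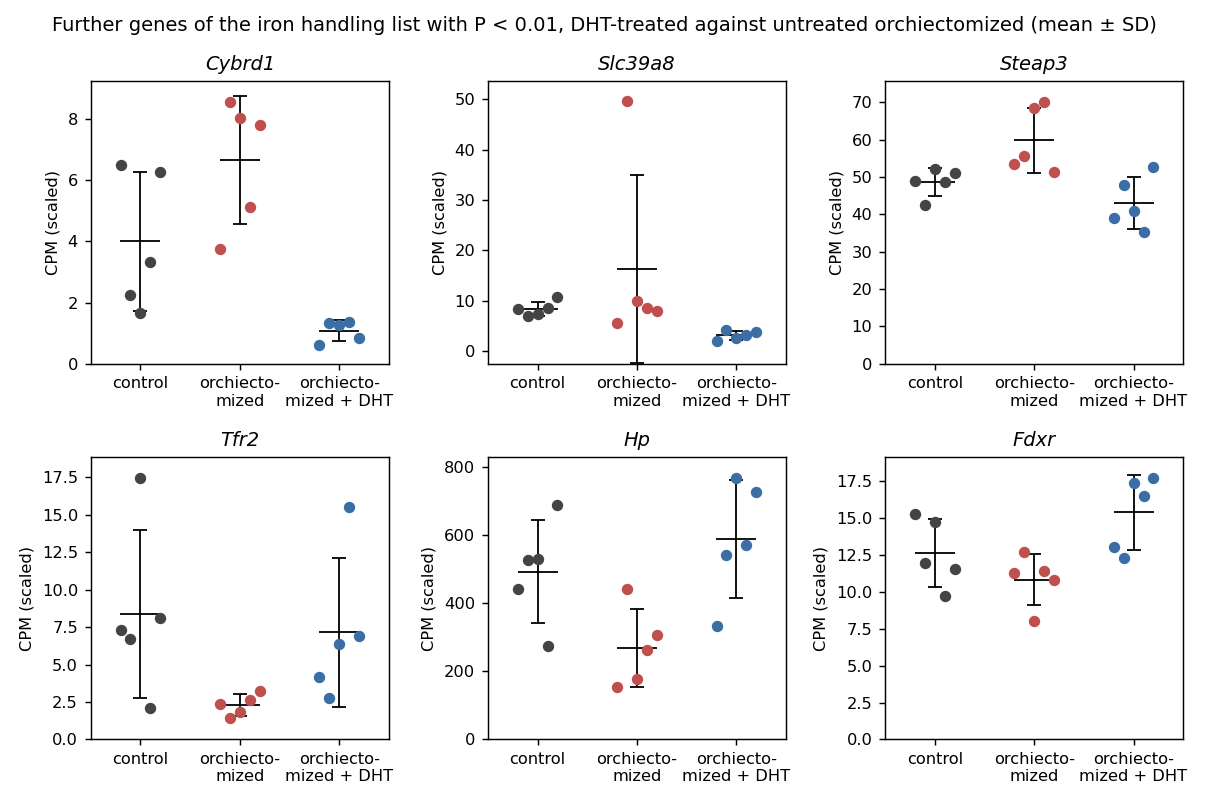
Scaled CPM (y axis) in each library (points) of 6 list genes called with DHT against untreated orchiectomized mice, with the mean and SD (bars, n = 5). The DHT-treated libraries of *Cybrd1* and *Slc39a8* lie below all others, and *Tfr2*, *Hp* and *Fdxr* overlap between groups; the *Slc39a8* bar after orchiectomy reflects 1 library at 49.6 CPM.

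Of 16 heme synthesis and transport genes 0, 1 and 0 were called in the 3 comparisons in the order above, that is 6.25% with DHT against untreated orchiectomized mice, where 9.72% of all genes were called. Their median log2 fold change there was 0.21, with 10 of 16 positive, against -0.02 for all genes. The 1 was *Abcg2*, a transporter of porphyrins among other cargo, which fell by 0.69 with DHT (standard error 0.14, edgeR adjusted P = 0.016). Among hepcidin and its regulators 0, 1 and 2 of 12 tested genes were called, that is 0%, 8.33% and 16.7% against 3.22%, 9.72% and 3.53% of all genes. Leaving out orchiectomized replicate 2 gave 1, 2 and 2. *Bmp6*, the growth factor through which iron stores raise hepcidin, fell from 84.3 ± 9.97 to 42.3 ± 10.6 CPM (SD, n = 5) with DHT, a log2 fold change of -0.99 (standard error 0.20, edgeR adjusted P = 0.016). Against control mice it fell by 1.01 (standard error 0.20, edgeR adjusted P = 0.0464). *Hfe*, the hemochromatosis gene, fell by 0.43 (standard error 0.13, edgeR adjusted P = 0.233) against control mice. That call was lost without control replicate 3 or 5 or DHT replicate 1 or 2 (-0.50 to -0.34 over all left-out libraries).

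Copper supply genes, which serve the ferroxidases, had 0, 2 and 2 of 11 called, that is 0%, 18.2% and 18.2% against 3.22%, 9.72% and 3.53% of all genes. They were the metallothioneins *Mt1* and *Mt2*, which bind zinc and copper and are not copper chaperones. *Mt2* rose by 1.43 (standard error 0.26, edgeR adjusted P = 0.0113) with DHT against untreated orchiectomized mice, from 41.1 ± 13.9 to 111 ± 32.9 CPM (SD, n = 5), and by 1.11 (standard error 0.26, edgeR adjusted P = 0.0929) against control mice. *Mt1* rose by 0.94 (standard error 0.28, edgeR adjusted P = 0.0669) and by 0.99 (standard error 0.28, edgeR adjusted P = 0.19), and the first lost its call without DHT replicate 5, at 0.80. The DHT-treated libraries of both genes lay above all 10 others. Of 13 tested NRF2 targets and regulators 1, 0 and 0 were called, that is 7.69%, 0% and 0% against the same shares of all genes. The 1 was *G6pdx*, the first enzyme of the pentose phosphate pathway, which fell by 0.82 after orchiectomy (standard error 0.26, edgeR adjusted P = 0.297). It lost its call with only the groups compared (-0.84) and when control replicate 1 or 3 or any of orchiectomized replicates 1, 2 and 3 was left out (-0.99 to -0.60 over all left-out libraries), and *Nqo1*, *Gclc* and the other targets were not called.

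Markers of other cell types moved with the same comparisons. After orchiectomy, where 2.08% of all genes were called higher, 8 of 9 tested T and B cell markers were called higher (6.54 to 16.7 CPM in control and 11.7 to 176 in orchiectomized libraries), with a median log2 fold change of 3.03, and 6 were without orchiectomized replicate 2. In the same comparison 2 of 8 mesothelial markers (*Krt8*, *Krt18*) were called higher, and 0 without that library. With DHT against untreated orchiectomized mice, where 7.27% of all genes were called lower, 3 of 12 macrophage markers were called lower, and their summed level was 622 to 886 CPM in orchiectomized and 406 to 695 in DHT-treated libraries, against 404 to 964 in controls. All 8 mesothelial markers were called lower (69.6 to 846 CPM against 16.0 to 35.0), 4 of 9 fibroblast markers (3112 to 4605 against 2080 to 3364), 3 of 8 endothelial markers (961 to 1391 against 718 to 907) and 9 of 9 tested T and B cell markers (11.7 to 176 against 4.78 to 16.4). With DHT 0 of 8 smooth muscle markers were called (edgeR), with a summed level of 20102 to 24969 CPM against 11180 to 20656. Without orchiectomized replicate 2, the called counts were 2 macrophage, 7 mesothelial, 4 fibroblast, 3 endothelial and 8 T and B cell markers lower, and 1 smooth muscle marker higher.

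In DHT-treated against control mice, where *Tfrc* also fell and 3.53% of all genes were called (2.01% lower), 0 of 12 macrophage and 0 of 9 T and B cell markers were called, and 3 of 8 endothelial, 3 of 9 fibroblast and 5 of 8 mesothelial markers were called lower. Without orchiectomized replicate 2, the mesothelial count was 7, and 3 of 8 smooth muscle markers were called higher. The globin genes *Hbb-bt*, *Hbb-bs*, *Hba-a1* and *Hba-a2* were listed at 0 in every library, so that they give no measure of blood, and of the other erythroid markers *Alas2* and *Slc4a1* were tested and not called. Of 4 tested neutrophil markers 3 were called higher after orchiectomy, where *Ltf* was called, and 3 without orchiectomized replicate 2. With DHT against untreated orchiectomized mice 3 were called lower, and 1 without that library. Against control mice 2 (*S100a8*, *S100a9*) were called higher with DHT, and 2 without that library. The part of these cells in the differences of *Hephl1* and of the called genes of the iron, heme, hepcidin, copper and NRF2 lists was not tested.

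RefSeq promoter windows (GRCm38.p6, 250 bases before to 50 after the start) were found for 5 of the 10 genes. The *Hephl1* window, chr9:15112059-15112358 on the minus strand, held 0 matches to the androgen half-site AGAACA on either strand, which 19.0% of all 32851 windows hold. It also held 0 matches to the E-box CACGTG, which 7.15% hold. The half-site had 1 match in 1 of the *Cp* windows and 0 in those of *Tfrc*, *Fth1* and *Ftl1*. These counts cover only the letters and the window searched.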

How the data were processed

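Whole-aorta poly(A) RNA-seq was measured in 15 libraries, 5 per group. The deposited values are raw read counts per gene symbol made by the authors, with no normalization. The submitters' processing notes name STAR, Cufflinks, DESeq2 and mm10 without their roles; the counter and annotation are not given in the sources used here. Rows that name no gene (6.26% to 14.4% of reads without a feature, 1.34% to 1.97% ambiguous) were left out. Counts were tested with edgeR 4.0.16 (R 4.3.3; TMM, filterByExpr with a minimum count of 10, quasi-likelihood test, 3 groups in 1 model), and ratios with exact permutation tests. Genes were called at unadjusted P under 0.01. DESeq2 1.42.0 was an alternative, with size factors by RLE, no filter, only the groups compared, a replicate block, an adjusted threshold and leaving out each library. P values measure only the spread between these samples, which differed within a group by at least 11.9 times the sampling noise (chi-square per degree of freedom, 30 pairs). The script was tested on simulated counts. Named genes were the 10 members, genes of 5 pathway lists at P under 0.01 (at most 5 per list, direction and comparison) and the 5 most and 3 least *Hephl1*-like genes. Members and lists were chosen with earlier results of these data known; the fatty acid synthesis list was added after the correlations were seen.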

Additional observations from a re-analysis of the deposited data

Results flagged for a closer look

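Of 36 sets of 5 libraries examined (the 10 genes and 2 ratios in 3 groups), 1 held a library far from the others. *Cp* in orchiectomized replicate 2 was at 217 CPM, where the nearest library of its group was at 128 CPM, a gap of 0.723 of the group's range (critical value 0.71 for 5 samples). Chance flags about 1 in 20 such sets. Without this library the log2 fold change of *Cp* was -0.08 after orchiectomy and 0.05 with DHT, against 0.18 and -0.21 with it.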

How the results depend on the processing

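Of 918 alternative values for tested genes, 845 kept their direction and side of the threshold, 37 lost the call, 9 gained it and 27 changed sign. The ratios are not in these counts, and some of their values also changed sign, as given below. Of 60 for *Hephl1*, which has no test, 1 changed sign (DHT-treated against control mice, -0.75 to 0.033 over left-out libraries). DESeq2 gave log2 fold changes of 8.78 and -8.37 for *Ltf* with no P value. Of the 9 members other than *Hephl1*, 2 were called with DHT against untreated orchiectomized mice, 1 with only the groups compared or an adjusted threshold, and 1 to 4 when a library was left out. Against control mice 1 was called, and 1 to 2 when a library was left out. The iron list gave 2 calls after orchiectomy, 0 with the adjusted threshold and 1 to 4 without single libraries (1 without control replicate 3, 4 without orchiectomized replicate 4). In DHT-treated against control mice it gave 2, 4 by DESeq2 and 1 with the adjusted threshold. The cause of these shifts was not tested.

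Values below are ranges of the log2 fold change or log2 ratio when a library was left out, for results that changed sign and were not called. After orchiectomy they were -0.00016 to 0.29 for *Heph*, -0.076 to 0.28 for *Cp*, -0.082 to 0.42 for *Slc40a1*, -0.28 to 0.069 for *Ftl1*, -0.13 to 0.052 for *Hmox1*, -0.052 to 0.080 for *Tfrc* to *Fth1* and -0.078 to 0.16 for *Fth1* to *Ftl1*. With DHT against untreated orchiectomized mice they were -0.36 to 0.050 for *Cp*, -0.055 to 0.11 for *Hmox1* and -0.12 to 0.11 for *Fth1* to *Ftl1*. Against control mice they were -0.18 to 0.076 for *Cp*, -0.13 to 0.015 for *Slc11a2*, -0.10 to 0.075 for *Hmox1* and -0.055 to 0.11 for *Fth1* to *Ftl1*.

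Libraries of different groups share only a number: of 15 correlations between same-numbered libraries 5 were over 0.1 (-0.47 to 0.46). With the replicate block, 0, 2 and 1 members and 3, 6 and 3 iron list genes were called in the 3 comparisons, against 0, 2 and 1 and 2, 9 and 2 without it. In DHT-treated against untreated orchiectomized mice, *Heph* (-0.82), *Tfr2*, *Fdxr* and *Ltf* were not called with the block and *Trf* was (-0.92), and *G6pdx* was not called after orchiectomy. Alternatives for the list genes were chosen after seeing the data. Low counts limit *Hephl1* after orchiectomy, *Cybrd1* with DHT and *Ltf*.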
